A study of Homo sapiens with 2 samples.

Results

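The transcripts described here are those of 10 genes of interleukin-6 (IL-6) signalling: the receptor chains IL6R and IL6ST, the kinases JAK1, JAK2 and TYK2, the transcription factors STAT3 and CEBPB, and the inhibitors SOCS1, SOCS3 and PIAS3. The genes were chosen as a list and were looked up by name in both deposited tables, which have 26225 gene names in common. All 10 were found, each at a single locus of its own in each library. The RNA was that of PLC cells, an established line of human liver cancer, which carried an empty vector (EV) or stably expressed human PRSS35, a secreted protease. Both groups had been infected with a lentivirus of the pCDH vector and selected with puromycin, and the labels give the EV cells as wild type, the other cells as over-expressing PRSS35, and no treatment for either. The sources used here do not say whether the lines are clones, or whether the RNA came from cells kept with or without serum. There was 1 library per condition, so the spread between cultures was not measured and no p-values are given.

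IL-6 binds the receptor chain IL6R, and the complex recruits the signal-transducing chain IL6ST, also called gp130, which is shared with other cytokines of the family. Kinases bound to IL6ST then phosphorylate STAT3, which enters the nucleus, and SOCS3, itself a STAT3 target, shuts the receptor off again. In hepatocytes this pathway, together with C/EBP factors, is known for switching on the acute-phase proteins of the blood.

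Levels are FPKM, that is, fragments per kilobase of transcript and per unit of library size. Values in brackets after a level are the bounds, or interval, that Cufflinks set around it, which hold the uncertainty of counting and of assigning fragments but not that between cultures. From these bounds the depth was estimated at 31460000 fragments for EV and 31540000 for PRSS35. In bulk RNA, fewer cells that express a gene and less of its RNA per cell cannot be told apart. PRSS35 itself had an FPKM of 0.643 in EV cells (0.445 to 0.841) and 1836 in PRSS35 cells (1759 to 1912). All 8 hepatocyte markers examined reached 1 FPKM in both libraries, with ALB at 4.05 in EV and 5.21 in PRSS35 cells, and their summed FPKM was 3410 in EV and 5170 in PRSS35 cells. SERPINA1, at 2528 and 4239, made up most of this difference. It was higher in PRSS35 cells with intervals apart, as were TF, APOB, HNF4A and ALB. APOA1, at 576.2 and 493.6, was lower in PRSS35 cells with intervals apart, and AFP and TTR had overlapping intervals. None of 4 endothelial markers reached 1 FPKM. Of 5 leukocyte markers, PTPRC and CD3E were listed at 0 in both libraries, and LYZ and the joined locus CD68,MPDU1 were above 1 FPKM, with a summed FPKM over the list of 391.0 in EV and 382.0 in PRSS35 cells. Of 5 fibroblast and stellate cell markers only PDGFRB reached 1 FPKM in both libraries. The part of these marker differences in those below was not tested.

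IL6R, STAT3 and CEBPB were higher in PRSS35 cells, with intervals that did not overlap between the libraries, and no member was lower by this criterion. IL6R had the largest difference, 1.69-fold, while STAT3 and CEBPB differed by 1.21-fold and 1.15-fold. The kinases, IL6ST, the SOCS genes and PIAS3 had overlapping intervals. Of the 10 members, 9 averaged 1 FPKM or more and counted as expressed, and JAK2 did not. Among 10900 expressed genes above 0 in both libraries, the intervals were apart with a higher value in PRSS35 cells for 24.8% and with a lower value for 14.8%. Against this background, 3 of 9 members higher and 0 of 9 lower are close to what genes at large showed. When each FPKM was instead divided by the sum of its library, the median over expressed genes moved from 0.06 to 0.68, every expressed member other than IL6ST was higher with intervals apart, and so were 87.7% of genes, with 1.48% lower. Directions are therefore given for the deposited scale, and those of JAK1, TYK2, IL6ST and PIAS3 turn upward under that division. No member differed by 2-fold on the deposited scale. Of 11115 expressed genes, 2.73% passed 2-fold upward and 2.48% downward, so none among 9 members is close to what genes at large showed. On the scale log2((FPKM in PRSS35 + 1) / (FPKM in EV + 1)), which understates the change of low genes, the median over the 9 expressed members was 0.18, against 0.06 over all expressed genes. Without the 2 expressed members whose locus Cufflinks rebuilt in a single library, IL6R and SOCS1, the median of the remaining 7 was -0.02. Over all expressed genes rebuilt in both libraries or in neither, it was 0.06. JAK2, not counted as expressed, was also rebuilt in the PRSS35 library only.

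**Figure D1:**
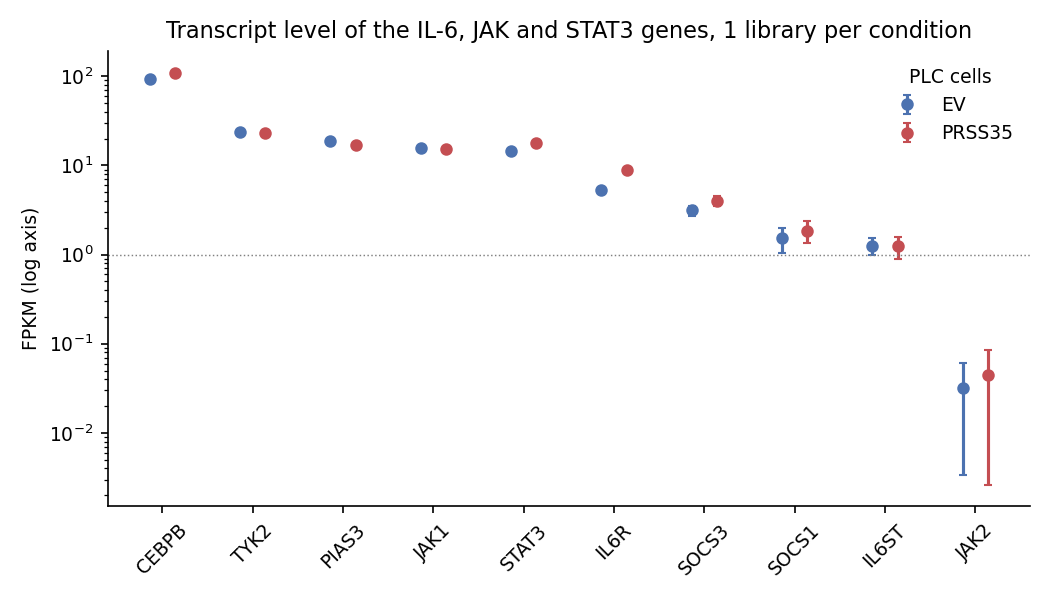
Transcript level of the 10 genes in FPKM on a log axis, for the EV library (blue) and the PRSS35 library (red). Points are the deposited values, bars the Cufflinks intervals, and the dotted line marks 1 FPKM. CEBPB was the most abundant at 93.8 and 108.0 FPKM, and JAK2 lay below 0.1 FPKM in both libraries.

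The ligand-binding chain IL6R lies on the plus strand of chromosome 1 of hg19, from 154377669 to 154441926, and its main annotated transcript has 10 exons. Its FPKM was 5.25 in EV cells (4.87 to 5.64) and 8.86 in PRSS35 cells (8.31 to 9.41). The intervals were far apart, and only 4.3% of expressed genes had a higher log2 change than the 0.66 of IL6R. The fold of 1.69 had an interval of 1.53 to 1.86, obtained by combining the relative errors of both libraries. Cufflinks used the annotated IL6R locus for EV but built the locus anew from the reads, called assembled here, for PRSS35. Among the 1116 expressed genes with this same combination, 37.9% were higher in PRSS35 cells with intervals apart and 9.50% had a log2 change above that of IL6R. Among the 2365 genes annotated in both libraries, these shares were 23.3% and 0.846%. The part of assembly in the IL6R difference was not tested. IL6R-AS1 on the opposite strand overlaps IL6R, as RMI2 overlaps SOCS1. RAVER2 likewise touches an exon of JAK1 and NUDT17 one of PIAS3, and both were listed at 0 in both libraries. Since the use of strand is not stated, reads of such pairs may not have been told apart. Their part in the member values was not tested.

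IL6ST, the shared signalling chain, lies on the minus strand of chromosome 5, from 55230925 to 55290821. It was scarce, with an FPKM of 1.26 in EV cells (0.985 to 1.54) and 1.24 in PRSS35 cells (0.898 to 1.57). The values lay within each other's interval, and the fold of 0.981 had an interval of 0.691 to 1.39, so differences smaller than these bounds could not be seen at this depth. Per length, IL6R was 4.17 times as abundant as IL6ST in EV cells (interval 3.31 to 5.25) and 7.17 times in PRSS35 cells (interval 5.42 to 9.49). The ligand-binding chain was therefore the more abundant of the pair in both libraries, and the intervals of the ratio did not overlap. The change of the ratio is that of IL6R, whose locus was assembled in PRSS35 only. The part of assembly in this change was not tested.

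Of the 3 kinases, TYK2 and JAK1 were well expressed and JAK2 was almost absent from the reads. TYK2, on the minus strand of chromosome 19 from 10461204 to 10491248, was at 23.8 FPKM in EV cells (22.5 to 25.1) and 23.3 in PRSS35 cells (22.0 to 24.6). JAK1, on the minus strand of chromosome 1 from 65298906 to 65432187, had 15.5 in EV cells (14.6 to 16.5) and 15.2 in PRSS35 cells (14.3 to 16.1). The libraries thus differed little for both kinases, with a fold of 0.979 for TYK2 (interval 0.905 to 1.06) and 0.975 for JAK1 (interval 0.897 to 1.06). The ratio of TYK2 to JAK1 was 1.53 in EV and 1.54 in PRSS35 cells. JAK2, on the plus strand of chromosome 9 from 4985245 to 5128183, was at 0.0317 FPKM in EV cells (0.00335 to 0.0601) and 0.0443 in PRSS35 cells (0.00257 to 0.0861). If these intervals held Poisson error alone, they would correspond to about 5.0 and 4.51 fragments. At so few fragments the fold of 1.40 had an interval of 0.381 to 5.12, and a change of JAK2 was not detectable.

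STAT3, the transcription factor that the kinases phosphorylate, lies on the minus strand of chromosome 17, from 40465343 to 40540513, and has 24 exons in its main annotated transcript. Its FPKM was 14.5 in EV cells (13.8 to 15.3) and 17.6 in PRSS35 cells (16.7 to 18.5). The intervals were apart, and the locus was assembled in both libraries. If the intervals held Poisson error alone, they would correspond to 1614 fragments in EV and 1588 in PRSS35 cells, which is not higher, at nearly equal depth. By the same reckoning IL6R had 747 and 1039 fragments and CEBPB 1629 and 1698, in each case a smaller difference than in FPKM, and what sets the measures apart was not tested. The fold was 1.21 (interval 1.13 to 1.30), and 19.9% of expressed genes had a higher log2 change. CEBPB, a factor first known for binding the IL-6 promoter, is a gene of 1 exon on the plus strand of chromosome 20, from 48807120 to 48809227. It was by far the most abundant member, above 85.6% of expressed genes in EV cells, with an FPKM of 93.8 in EV cells (89.2 to 98.5) and 108.0 in PRSS35 cells (102.8 to 113.2). The fold was 1.15 (interval 1.07 to 1.23), and 27.3% of expressed genes had a higher log2 change. The antisense gene CEBPB-AS1 overlaps its locus and was listed at 0 in both libraries. The call for CEBPB depended on the scaling. When the PRSS35 values were divided by the median ratio of expressed genes, 1.05, IL6R and STAT3 still had intervals apart, CEBPB did not, and PIAS3 became lower with intervals apart. In this setting 17.5% of genes were higher and 20.5% lower.

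**Figure D2:**
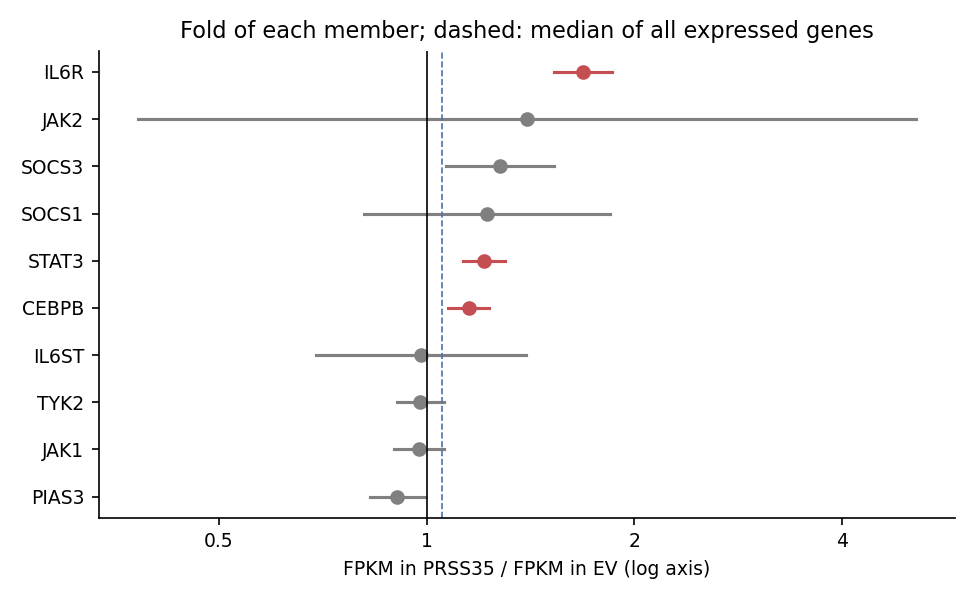
FPKM in PRSS35 cells over FPKM in EV cells for each member on a log axis, with the interval that combines the errors of both libraries. Red marks the genes whose own intervals did not overlap, the solid line a ratio of 1 and the dashed line the median ratio of expressed genes, 1.05. IL6R, at 1.69, is the farthest from both lines, and the interval of JAK2 runs from 0.381 to 5.12.

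Among the inhibitors, SOCS3 and SOCS1 had higher and PIAS3 a lower value in PRSS35 cells, none with intervals apart. SOCS3, which binds the activated receptor and blocks the kinases, lies on the minus strand of chromosome 17 from 76352858 to 76356160 and kept its annotated locus in both libraries. Its FPKM was 3.14 in EV cells (2.73 to 3.55) and 4.01 in PRSS35 cells (3.52 to 4.50). These intervals overlapped at the edge, while the interval of the fold of 1.28 ran from 1.07 to 1.53. SOCS1, a related inhibitor of the kinases, lies on the minus strand of chromosome 16 from 11348274 to 11350039. It had an FPKM of 1.52 in EV cells (1.05 to 1.99) and 1.86 in PRSS35 cells (1.35 to 2.37), with largely overlapping intervals and a fold of 1.22 (interval 0.811 to 1.84). SOCS3 was 2.06 times as abundant per length as SOCS1 in EV cells (interval 1.48 to 2.88) and 2.16 times in PRSS35 cells (interval 1.60 to 2.90).

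PIAS3, which binds STAT3 and blocks its activity on DNA, lies on the plus strand of chromosome 1, with a locus from 145575228 to 145586628 in EV and from 145575988 to 145586546 in the PRSS35 library. It had an FPKM of 18.6 in EV cells (17.4 to 19.7) and 16.8 in PRSS35 cells (15.7 to 18.0). The intervals overlapped, and the fold was 0.907 (interval 0.827 to 0.994). A joined locus of NBPF genes, at 2.69 FPKM in EV and 3.07 in PRSS35 cells, spans PIAS3 and touches its exons, and its part in the PIAS3 values was not tested. PIAS3 was more abundant than STAT3 in EV cells, with a ratio of 1.28 (interval 1.18 to 1.38), and at about the same level in PRSS35 cells, with a ratio of 0.956 (interval 0.878 to 1.04). By level, the order in EV cells was CEBPB, TYK2, PIAS3, JAK1, STAT3, IL6R, SOCS3, SOCS1, IL6ST and JAK2, in which JAK1 and STAT3, and SOCS1 and IL6ST, had overlapping intervals. In PRSS35 cells STAT3 came before PIAS3 and JAK1, with overlapping intervals between STAT3 and PIAS3, PIAS3 and JAK1, and again SOCS1 and IL6ST.

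**Figure D3:**
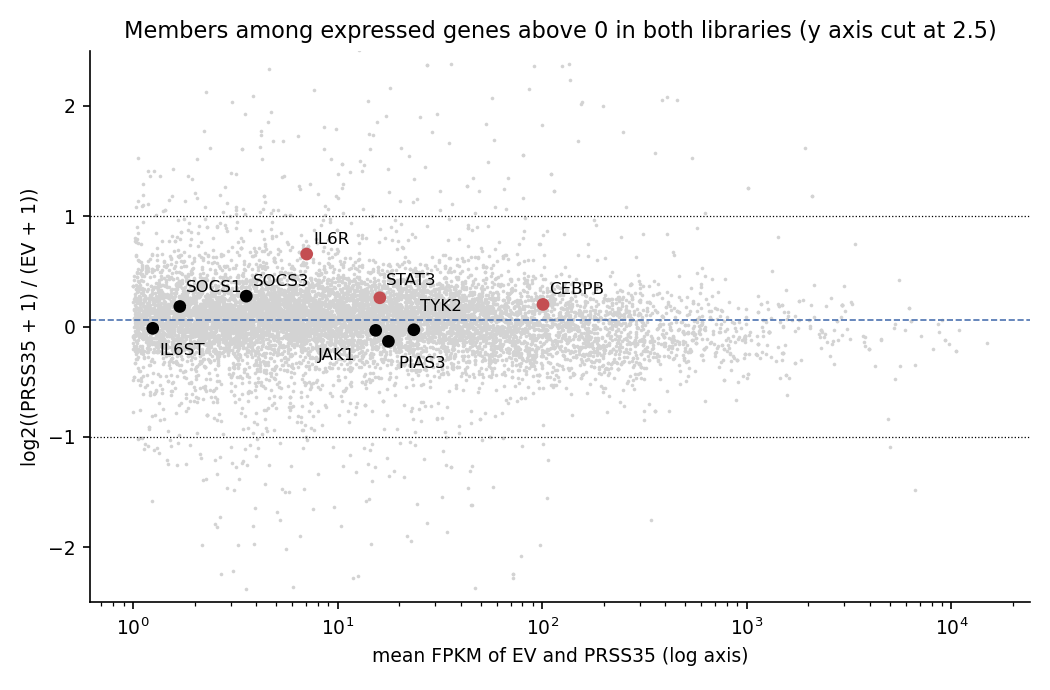
Log2 change against mean FPKM (log axis) for expressed genes above 0 in both libraries (grey), with the 9 expressed members labelled (red where the intervals were apart). The dashed line is the median of all expressed genes, 0.06, and the dotted lines mark 2-fold. All members lie between the dotted lines, with IL6R highest at 0.66 and PIAS3 lowest at -0.13.

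The stretch before the start of a transcript is one place where a factor such as STAT3 could bind to act on a member. The 250 bases before the start of the main annotated transcript are printed for the 3 members with intervals apart. Coordinates are those of GRCh37, which is the same assembly as hg19. The loci given above start before these transcripts, so each window lies partly, and that of CEBPB almost wholly, inside its locus. Each runs 5′ to 3′ along the gene's strand, and capitals would mark a match to the STAT motif TTCNNNGAA on either strand.
IL6R, chr1:154377569-154377818, plus strand: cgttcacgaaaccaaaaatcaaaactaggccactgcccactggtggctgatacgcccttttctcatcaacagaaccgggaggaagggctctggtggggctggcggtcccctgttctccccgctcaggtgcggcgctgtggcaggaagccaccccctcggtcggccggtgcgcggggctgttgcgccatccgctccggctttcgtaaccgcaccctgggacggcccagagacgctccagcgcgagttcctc
STAT3, chr17:40540461-40540710, minus strand: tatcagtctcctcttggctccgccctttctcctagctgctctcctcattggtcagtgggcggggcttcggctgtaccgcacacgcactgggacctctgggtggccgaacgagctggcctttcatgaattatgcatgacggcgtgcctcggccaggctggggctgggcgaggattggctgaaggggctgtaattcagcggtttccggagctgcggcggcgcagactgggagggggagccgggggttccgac
CEBPB, chr20:48807117-48807366, plus strand: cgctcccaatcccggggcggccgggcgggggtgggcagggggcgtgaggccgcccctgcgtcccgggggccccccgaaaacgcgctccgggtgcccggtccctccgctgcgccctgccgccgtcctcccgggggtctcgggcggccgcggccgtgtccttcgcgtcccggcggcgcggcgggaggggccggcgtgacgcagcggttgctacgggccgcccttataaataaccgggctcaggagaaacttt
None of these 3 windows holds the STAT motif, which is in 4.98% of the same windows of 9993 expressed genes. The C/EBP motif TTGCNNAA, searched on both strands as well, is in none of the 3 and in 5.53% of all. The windows of the other members are not described here. These are searches for letters in a short window and say nothing of binding.

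The surrounding pathway was read from 7 lists with 72 genes in all. The counts with intervals apart stand beside 24.8% higher and 14.8% lower among expressed genes above 0 in both libraries. In lists this short they are no result about the lists. IL6 itself was listed at 0 in both libraries. Of 9 cytokines of the family, 5 counted as expressed, 1 was higher and 1 lower with intervals apart, and their median log2 change was -0.08. EBI3, a subunit of IL-27, had an FPKM of 9.35 in EV and 6.92 in PRSS35 cells, a fold of 0.740 (interval 0.608 to 0.900). The 1 counted as higher is CNTF, at 5.43 in EV and 6.31 in PRSS35 cells. This value is that of a locus joined with ZFP91 and cannot be assigned to this cytokine. With whole names only, which leaves joined loci out, the median of the cytokines was -0.11.

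Of 7 receptor chains and sheddases, 6 were expressed, 1 was higher and 1 lower, and the median log2 change was 0.11. IL27RA, which pairs with IL6ST to bind IL-27, had an FPKM of 12.7 in EV and 16.6 in PRSS35 cells. Its fold was 1.31 (interval 1.20 to 1.44). The IL27RA locus was assembled in EV only, as were those of 1048 expressed genes, of which 16.6% were higher and 20.4% lower with intervals apart. CNTFR, the ligand-binding chain for ciliary neurotrophic factor, was at 2.03 in EV and 1.23 in PRSS35 cells, a fold of 0.605 (interval 0.438 to 0.836). IL11RA, the most abundant of the list at 16.2 and 17.4 FPKM, had overlapping intervals. It was 12.9 times as abundant per length as IL6ST in EV cells (interval 10.2 to 16.3).

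Of the other JAK and STAT genes, 4 of 7 were expressed, 2 were higher and 0 lower, with a median log2 change of 0.26. With 4 genes, these counts cannot be set apart from the 24.8% and 14.8% of genes at large. STAT5B, which mediates growth hormone signals in liver, had an FPKM of 7.90 in EV and 10.3 in PRSS35 cells. Its fold was 1.30 (interval 1.19 to 1.42), and its locus was assembled in EV only. Among 13 other inhibitors, 11 were expressed, 1 was higher and 0 were lower, and the median was 0.01. The gene that differed was PTPN1, a tyrosine phosphatase that acts on JAK2 and TYK2, with an FPKM of 26.8 in EV and 35.5 in PRSS35 cells and a fold of 1.33 (interval 1.23 to 1.43).

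**Figure D4:**
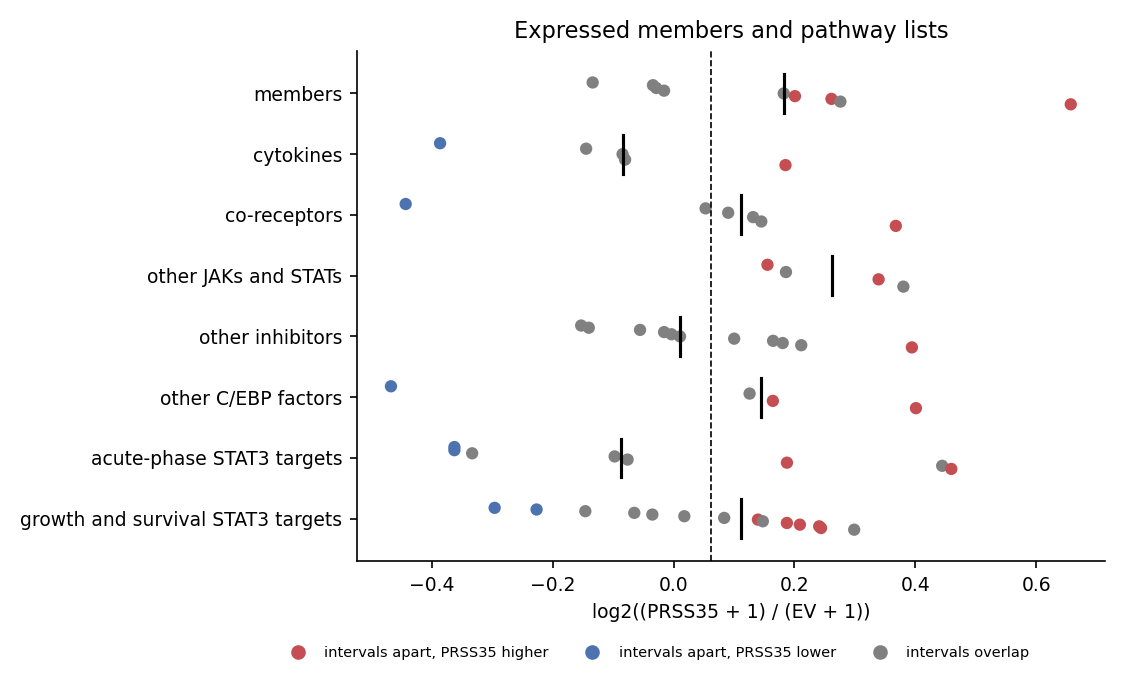
Log2 change of each expressed gene in the 10 members and the 7 lists. Red points were higher and blue points lower in PRSS35 cells with intervals apart, grey points had overlapping intervals, short bars are list medians and the dashed line is the median of all expressed genes, 0.06. Medians run from -0.09 for acute-phase targets, which turned to 0.06 with whole names only, to 0.26 for other JAK and STAT genes.

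CEBPB stood beside CEBPA at nearly the same level, with a ratio of CEBPB to CEBPA of 0.981 in EV (interval 0.916 to 1.05) and 1.01 in PRSS35 cells (interval 0.940 to 1.08). Of 6 genes in the list of other C/EBP factors, 4 were expressed, 2 were higher and 1 was lower, with a median log2 change of 0.145. CEBPD, another C/EBP factor of the acute-phase response, had an FPKM of 19.5 in EV and 26.1 in PRSS35 cells, a fold of 1.34 (interval 1.20 to 1.49). CEBPA, a factor of the differentiated hepatocyte, was at 95.7 and 107.3, a fold of 1.12 (interval 1.05 to 1.20). CEBPZ, a nuclear protein outside the C/EBP family proper, was the lower gene, at 5.86 and 3.96.

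Of 16 genes listed as acute-phase targets, 8 were expressed, 2 were higher and 2 lower. Their median log2 change was -0.09, which turned to 0.06 with whole names only or at a mean FPKM of at least 5. These counts, and those of the growth and survival targets, lie near the 24.8% higher and 14.8% lower of all genes and are no result about the targets. Whether A2M, SAA4 or any other gene of this list responds to STAT3 in these human cells was not tested. A2M, a protease inhibitor of plasma and the most abundant of the list, had an FPKM of 171.3 in EV and 195.3 in PRSS35 cells. Its fold was 1.14 (interval 1.07 to 1.21). ORM1, an acid glycoprotein whose near-identical copy ORM2 can take part of its reads, was at 18.6 and 25.9, a fold of 1.40 (interval 1.20 to 1.62). SAA2 and SAA4 share 1 joined locus, at 43.5 in EV and 33.6 in PRSS35 cells, so both lower names are 1 measurement, a fold of 0.773 (interval 0.668 to 0.894). CRP, HP and SAA1 were listed at 0 in both libraries. An exact 0 in such a table can also be a failed estimate.

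All 14 growth and survival targets were expressed, 5 were higher and 2 were lower with intervals apart, and the median log2 change was 0.11. BCL2L1, an inhibitor of apoptosis and the most abundant of these, had an FPKM of 145.1 in EV and 160.0 in PRSS35 cells, a fold of 1.10 (interval 1.04 to 1.16). MYC was at 33.3 and 39.6, a fold of 1.19 (interval 1.11 to 1.28), JUNB at 61.0 and 70.6, VEGFA at 11.3 and 13.0, and BIRC5 at 77.5 and 92.0. In the other direction, BCL3, a nuclear partner of NF-kB, was at 45.2 and 36.6, a fold of 0.810 (interval 0.752 to 0.874). The adhesion molecule ICAM1 was at 34.4 and 29.2, a fold of 0.850 (interval 0.784 to 0.922). The locus of BCL3 was assembled in EV only and that of MYC in PRSS35 only. The part of assembly in these differences, and in those of IL27RA and STAT5B, was not tested. No expressed gene of the 7 lists differed by 2-fold in either direction on the log2 scale with 1 FPKM added. Of all expressed genes, 2.73% passed 2-fold upward and 2.48% downward.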

How the data were processed

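RNA of 1 EV and 1 PRSS35 library was sequenced by the authors, aligned to hg19 with TopHat2 (version 2.1.0) and quantified with Cufflinks (version 2.2.1). The submitters' processing notes name Cuffdiff with that version. The annotation release and whether strand was used are not given in the sources used here. The authors deposited the FPKM of each locus and its lower and upper bound, and these FPKM values were used as they stand.

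Names inside a comma-joined name were split, each taking the FPKM of its locus, and loci that share a name were summed, with bounds combined in quadrature. Loci on contigs outside the chromosomes, all at 0, and 1 locus per library with a failed status were left out. A gene counted as expressed where its FPKM averaged 1 or more. Before the log2 ratio was taken, 1 FPKM was added to each value, and no test was run. Intervals were taken as 2 standard deviations to each side, and the interval of a fold combines the relative errors of both libraries. Depth was estimated by a Theil-Sen slope (scipy 1.17.1) over single-exon loci (16 in EV, 21 in PRSS35) whose interval matches a whole number of fragments within 0.01, below 200 fragments. The value of 1 fragment, compared at 621 loci, was nearly equal in both libraries (median ratio 1.00).

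The members and lists were chosen with earlier results of these data known. The genes named are the 10 members, PRSS35, each expressed listed gene whose intervals were apart, and the most abundant gene of each list. Other genes were named after their values were seen. 1 gene under this rule and 1 sequence are not reported here. With 2 libraries, no likeness of expression patterns was computed. Starts and exons are those of the canonical transcripts in GENCODE release 44 mapped to GRCh37, and the choice of the 250 bases before these starts was made after RefSeq's own windows had been seen. The scripts were tested on simulated data. Alternatives tried were pseudocounts of 0.1 and 5 FPKM, FPKM divided by its sum, centring on the median, the highest locus per name, whole names only, a 1.5-fold threshold, no filter and a mean FPKM of at least 5. Tables were handled with pandas 2.3.3 and numpy 2.4.6 under Python 3.11.15, and figures drawn with matplotlib 3.10.9.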

Additional observations from a re-analysis of the deposited data

How the results depend on the processing

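The log2 changes of the 10 members stayed between -0.20 and 0.74 under the pseudocounts, centring, highest locus and whole names. With FPKM divided by its sum, the median of all expressed genes moved from 0.06 to 0.68. The medians then became 0.65 for the members, 0.37 for cytokines, 0.68 for receptor chains, 0.80 for other JAK and STAT genes, 0.67 for other inhibitors, 0.82 for other C/EBP factors, 0.52 for acute-phase and 0.77 for growth and survival targets. In this setting 8 members were higher with intervals apart, as were 9656 genes, while 163 genes were lower. Relative to the median gene, IL6R was then at 0.60, STAT3 at 0.25, CEBPB at 0.23 and PIAS3 at -0.14. IL6R alone passed 2-fold in this setting, and it alone passed at a 1.5-fold threshold, so the number of members higher was 1 in both.

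Of all expressed genes, 303 were higher and 276 lower by 2-fold. The numbers were 581 and 475 at 1.5-fold, 1273 and 180 with FPKM divided by its sum, 192 and 162 with a pseudocount of 5 FPKM, 202 and 169 at a mean FPKM of at least 5, and 192 and 186 with whole names only. Of the genes past 2-fold, the share higher in PRSS35 cells was 87.6% with FPKM divided by its sum against 52.3% in the reported setting. The looser threshold, the stricter filter and the larger pseudocount, which shrinks every log2 change, move the counts by construction. Division by the sum does so too. FPKM added up to 2469030 for EV and 1508529 for PRSS35, so this division raises every PRSS35 value against EV by the same factor. Why the sums differ was not tested, nor was the cause of the shift with whole names only.

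Settings added after the data had been seen were division of PRSS35 values by the median ratio and restriction by assembly. The division leaves IL6R and STAT3 higher and makes 1 member, PIAS3, lower. The restriction kept genes assembled in both libraries or in neither. There the median log2 change was -0.0157 for 7 expressed members and 0.0562 for all expressed genes. The acute-phase median turned from -0.09 to 0.06 with whole names only and at a mean FPKM of at least 5, and that of other inhibitors from 0.01 to -0.05 with centring. Counting SAA2 and SAA4 once left the acute-phase median at -0.08. No paired analysis was possible because there is only 1 EV and 1 PRSS35 library. Low fragment numbers limit what can be said of JAK2, IL6ST and SOCS1.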

Other observations

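Inside the first part of the JAK2 gene, where the annotated transcript had almost no signal, Cufflinks assembled 2 unnamed loci in each library that touch no exon of the canonical JAK2 transcript. The first, at bases 4986591 to 4987697 of chromosome 9 in EV cells, reached 2.41 FPKM (interval 1.79 to 3.03), and its counterpart in PRSS35 cells, at 4986918 to 4987693, reached 3.26 (interval 2.34 to 4.18). The other, from 4992004 to 4992434 in EV and from 4991982 in PRSS35 cells, had 6.71 (interval 4.36 to 9.06) and 7.80 (interval 5.40 to 10.2). The intervals overlapped between the libraries, and all values were far above the 0.0317 and 0.0443 FPKM of JAK2 itself. GENCODE lists no other gene at these positions.

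STAT6, CEBPE and DDIT3 were listed at 0 in both libraries. The DDIT3 locus was nevertheless assembled from reads in the PRSS35 library. As said above, an exact 0 can also be a failed estimate, so absence of these transcripts is not shown. LIFR, which pairs with IL6ST for leukemia inhibitory factor, had an FPKM of 0.0680 in EV and 0.0776 in PRSS35 cells, whereas OSMR, the partner for oncostatin M, had 2.89 and 3.26.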
